A study of Mus musculus with 8 samples.

Results

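The carnitine shuttle and the core of mitochondrial fatty acid oxidation were followed through 10 genes chosen by name: Slc22a5, Cpt1a, Slc25a20, Cpt2, Acadvl, Acadl, Acadm, Hadha, Hadhb and Hadh. All 10 were found among the 25239 gene symbols counted in each liver, and all 10 were among the 12977 genes with enough reads to be tested. The samples were livers of 8 adult male mice, all homozygous for the floxed allele Smo tm2Amc /J on a C57Bl6/J background and all fed the CDA-HFD, a choline-deficient, amino acid-defined diet rich in fat, for 6 weeks. A vector of adeno-associated virus serotype 8 was given by tail vein 1 week before sacrifice. In 4 mice it was AAV8-TBG-Luciferase (Smo-Luc, the control group, whose genotype the labels call WT although the mice carry the floxed allele), and in 4 mice it was AAV8-TBG-Cre Recombinase (Smo-Cre, the Smo-KO group). The TBG promoter restricts expression to hepatocytes, so Smo, the signal transducer of the Hedgehog pathway, is targeted in these cells and left in place in the other cells of the liver. RNA was taken from whole liver, and less RNA of a gene per cell cannot be told apart from fewer cells that express it.

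Long-chain fatty acids cannot cross the inner mitochondrial membrane as acyl-CoA. They are passed to carnitine by CPT1 at the outer membrane, carried across the inner membrane by the carnitine-acylcarnitine translocase and returned to CoA by CPT2. The matrix enzymes then shorten the chain in repeated cycles of dehydrogenation, hydration, a second dehydrogenation and thiolysis. In the liver this pathway supplies energy and the acetyl-CoA for ketone bodies during fasting, the entry step is blocked by malonyl-CoA, and several of its genes are known targets of PPAR alpha, a receptor for fatty acids that binds DNA together with RXR.

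Slc22a5 lies at chr11:53864542-53891660 on the minus strand and Cpt1a at chr19:3322334-3385733 on the plus strand (GRCm38, GENCODE M21). Hadha, at chr5:30118304-30155162 on the minus strand, and Hadhb, at chr5:30155248-30184593 on the plus strand, stand head to head, and their RefSeq starts are 273 bases apart. The other genes are on chromosome 9 (Slc25a20), 4 (Cpt2), 11 (Acadvl), 1 (Acadl) and 3 (Acadm and Hadh). Promoter sequences from RefSeq (GRCm38.p6, from 250 bases before to 50 after the start) were found for all 10, and those printed leave out bases that GENCODE M21 places in a UTR. The first shown is that of Slc22a5, the gene with the largest difference between the groups, with matches to the GC box GGGCGG on either strand in capitals. The second is that of Cpt1a, with a match to AGGTCA, the half-site bound by PPAR alpha and other nuclear receptors, in capitals (here on the opposite strand). The third is the stretch that the windows of Hadha and Hadhb share between their starts, since these genes encode the 2 subunits of 1 enzyme, written on the plus strand with the GC box in capitals. They lie at chr11:53891661-53891953 (minus strand), chr19:3323051-3323284 (plus strand) and chr5:30155163-30155230. The stretch of Cpt1a lies within the gene as GENCODE M21 places it, since the RefSeq start used is downstream of the GENCODE start.
Slc22a5: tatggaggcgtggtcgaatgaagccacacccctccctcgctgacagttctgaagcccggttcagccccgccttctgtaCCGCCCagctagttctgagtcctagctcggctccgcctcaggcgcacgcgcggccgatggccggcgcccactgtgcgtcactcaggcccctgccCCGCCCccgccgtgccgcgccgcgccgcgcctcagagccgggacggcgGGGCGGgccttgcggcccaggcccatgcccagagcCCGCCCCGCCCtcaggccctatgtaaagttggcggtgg
Cpt1a: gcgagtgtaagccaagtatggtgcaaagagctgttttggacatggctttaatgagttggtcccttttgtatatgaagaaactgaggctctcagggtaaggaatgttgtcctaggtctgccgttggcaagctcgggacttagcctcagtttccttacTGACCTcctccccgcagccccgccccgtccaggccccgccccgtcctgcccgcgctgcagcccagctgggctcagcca
Hadha and Hadhb: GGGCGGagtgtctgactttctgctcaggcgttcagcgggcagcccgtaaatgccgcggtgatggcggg

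Both strands of every window were searched. The GC box occurred in 8 of the 10 promoters and in 35.7% of all 32851 RefSeq promoter windows, with 5 matches in that of Slc22a5, the last of which overlaps the one before it by 1 base. The windows of Hadha and Hadhb overlap, and the 1 match of Hadha is also 1 of the 4 matches of Hadhb. The half-site AGGTCA occurred in 3 of the 10 (Cpt1a, Acadm and Acadvl) and in 16.3% of all windows. A repeat of AGGTCA with 1 base between the copies (DR1), the arrangement known for PPAR alpha with RXR, was in none of the 10 and in 0.0396% of all windows. The longer half-site TCAAGGTCA, which contains AGGTCA, was in none of the 10 and in 0.423% of all windows, and CCAAT was in 2 of the 10 and in 37.4%. These matches describe letters in short windows and do not show binding.

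Smo was checked first, since it is the targeted gene. It was 8.17, 8.49, 8.74 and 8.21 CPM (reads scaled to library size, with TMM factors that correct for library composition) in Smo-Luc mice 1 to 4 and 5.67, 3.93, 4.27 and 4.37 CPM in Smo-Cre mice 1 to 4. The groups did not overlap, and the Smo-Cre mean was 54.3% of the control mean (two-sided exact permutation p = 0.0286, the lowest value possible with 4 against 4). In edgeR its log2 fold change was -0.88 ± 0.16 (SE, adjusted p 0.0957). Libraries held between 8203299 and 9999732 reads on genes, and a difference between the groups in this number was not detected (two-sided exact permutation p = 0.257). Each of the 10 genes had at least 317 reads in every liver, far above the 3 reads (0.297 to 0.366 CPM) taken here as the floor of counting.

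All 10 genes were higher on average in Smo-Cre livers, by between 0.04 and 0.59 on the log2 scale (fitted log2 fold change, median 0.15, against a median of 0.00 over all genes tested). The 3 largest differences were in carnitine genes. In edgeR's quasi-likelihood test, 3 of the 10 had an unadjusted p under 0.05 and were higher (Slc22a5, Cpt1a and Slc25a20), where 6.7% of all genes tested did so. In 1 of the 10, Slc22a5, all Smo-Cre livers lay above all Smo-Luc livers, where 3.03% of all genes did so. With adjustment over all genes, edgeR's test called none of the 10 at an adjusted p under 0.05, and none of the 12977 (0%), although 1797 had an unadjusted p under 0.05. DESeq2's Wald test called 1 of the 10, Slc22a5 (adjusted p 0.00902), and 0.66% of the genes it adjusted were called higher. The 10 genes share livers and are not independent of each other, so that their common direction is a description and carries no test.

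**Figure D1:**
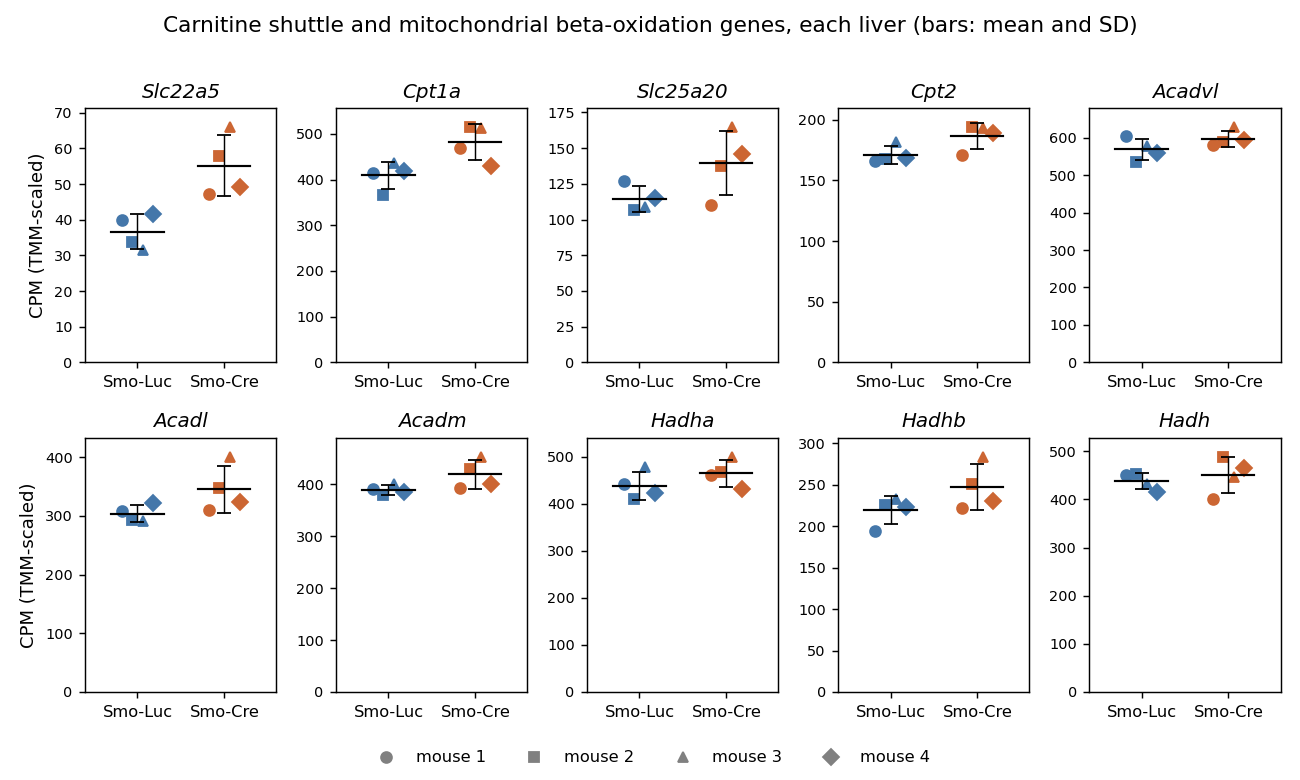
CPM after TMM scaling (vertical axis, from 0) of each of the 10 genes in the 4 Smo-Luc and the 4 Smo-Cre livers, with 1 point per liver, a line at the mean and bars of 1 SD. Mice with the same number in the 2 groups are different animals; the 4 Smo-Cre points lie above all Smo-Luc points in Slc22a5 (47.3 to 66.0 against 31.5 to 41.6 CPM), and the groups overlap in the other genes.

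Slc22a5 encodes OCTN2, the sodium-coupled transporter that brings carnitine into the cell. It was 39.8, 33.7, 31.5 and 41.6 CPM in Smo-Luc mice 1 to 4 and 47.3, 58.0, 66.0 and 49.3 CPM in Smo-Cre mice 1 to 4. Every Smo-Cre liver was above the highest control, and Smo-Cre mouse 3 was the highest of the 8. The means were 36.7 ± 4.84 and 55.1 ± 8.59 CPM (SD, n = 4 each), so that the Smo-Cre mean was 50.5% above that of the controls. The log2 fold change was 0.59 ± 0.13 (SE, unadjusted p 0.000525, edgeR adjusted p 0.126), the 53rd smallest p among the genes tested. With each mouse left out in turn it stayed between 0.49 and 0.66, and over all alternatives its adjusted p ran from 0.00902 to 0.257.

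Cpt1a encodes the liver form of carnitine palmitoyltransferase 1, which makes acylcarnitine at the outer membrane and is the step that malonyl-CoA inhibits. It was 415, 366, 435 and 419 CPM in Smo-Luc mice 1 to 4 and 469, 515, 513 and 430 CPM in Smo-Cre mice 1 to 4. Of the Smo-Cre livers, 3 were above the highest control and Smo-Cre mouse 4 lay within the control range. The means were 409 ± 30.1 and 482 ± 40.3 CPM (SD, n = 4 each), with a log2 fold change of 0.24 ± 0.093 (SE, unadjusted p 0.0247, edgeR adjusted p 0.290).

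Slc25a20 encodes the carnitine-acylcarnitine translocase of the inner membrane, which exchanges acylcarnitine for free carnitine. It was 127, 106, 109 and 115 CPM in Smo-Luc mice 1 to 4 and 110, 138, 165 and 146 CPM in Smo-Cre mice 1 to 4. Smo-Cre mouse 1 was below the control mean and the other 3 were above all controls. The means were 114 ± 9.25 and 140 ± 22.6 CPM (SD, n = 4 each), with a log2 fold change of 0.29 ± 0.12 (SE, unadjusted p 0.0297, edgeR adjusted p 0.306).

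Cpt2, the inner membrane enzyme that returns the acyl group to CoA, had the smallest difference of the 4 carnitine genes. It was 166, 167, 182 and 169 CPM in Smo-Luc mice 1 to 4 and 171, 194, 193 and 189 CPM in Smo-Cre mice 1 to 4. Smo-Cre mouse 1 lay among the controls and the other 3 above them. The log2 fold change was 0.13 ± 0.081 (SE, edgeR adjusted p 0.512). The ratio of Cpt1a to Cpt2 CPM within a liver was 2.39 ± 0.148 in Smo-Luc and 2.58 ± 0.208 in Smo-Cre mice (SD, n = 4 each). A difference between the groups in this ratio was not detected (two-sided exact permutation p = 0.171, 0.343 adjusted over the 2 ratios tested). The difference of its log2 values was 0.11 ± 0.076 (SE). Without Smo-Cre mouse 4 this difference was 0.169 (exact permutation p = 0.0286, the lowest value possible with a mouse left out, 0.0571 adjusted over the 2 ratios). Without Smo-Luc mouse 2 it was 0.066 (exact permutation p = 0.400).

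The acyl-CoA dehydrogenases, which take the first step of each cycle and pass electrons to the electron transfer flavoprotein, had log2 fold changes of 0.07 to 0.18. Acadvl, the membrane-bound enzyme for very long chains, was 603, 535, 578 and 558 CPM in Smo-Luc mice 1 to 4 and 581, 588, 628 and 593 CPM in Smo-Cre mice 1 to 4. Smo-Luc mouse 1 was above 3 of the 4 Smo-Cre livers, and the log2 fold change was 0.07 ± 0.081 (SE, edgeR adjusted p 0.736). Acadl, the long-chain enzyme, was 308, 294, 291 and 322 CPM in Smo-Luc mice 1 to 4 and 310, 347, 401 and 323 CPM in Smo-Cre mice 1 to 4. Smo-Cre mouse 3 stood highest and Smo-Cre mouse 1 lay within the control range, and the log2 fold change was 0.18 ± 0.096 (SE, unadjusted p 0.0768, edgeR adjusted p 0.412).
Acadm, the medium-chain enzyme, was 391, 379, 401 and 385 CPM in Smo-Luc mice 1 to 4 and 392, 430, 453 and 401 CPM in Smo-Cre mice 1 to 4. Smo-Cre mice 2 and 3 were clear of the controls, Smo-Cre mouse 1 lay within their range and Smo-Cre mouse 4 level with the highest of them. The log2 fold change was 0.11 ± 0.082 (SE, edgeR adjusted p 0.590). Without Smo-Cre mouse 3 the log2 fold changes of Acadvl, Acadl and Acadm were 0.05, 0.10 and 0.07, and without Smo-Luc mouse 2 that of Acadvl was 0.05.

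Hadha and Hadhb encode the alpha and beta subunits of the mitochondrial trifunctional protein, which carries the hydratase, the long-chain 3-hydroxyacyl-CoA dehydrogenase and the thiolase on the inner membrane. Hadha was 443, 409, 478 and 423 CPM in Smo-Luc mice 1 to 4 and 460, 467, 500 and 431 CPM in Smo-Cre mice 1 to 4. The groups overlapped, with only Smo-Cre mouse 3 above all controls, and the log2 fold change was 0.08 ± 0.087 (SE, edgeR adjusted p 0.709). Hadhb was 194, 226, 233 and 224 CPM in Smo-Luc mice 1 to 4 and 221, 251, 284 and 231 CPM in Smo-Cre mice 1 to 4. Smo-Luc mouse 1 was the lowest of the 8 and Smo-Cre mouse 3 the highest, and the log2 fold change was 0.17 ± 0.10 (SE, edgeR adjusted p 0.473). Without Smo-Cre mouse 3 the log2 fold changes of Hadha and Hadhb were 0.05 and 0.10, and that of Hadha was 0.06 without Smo-Luc mouse 2 and 0.13 without Smo-Luc mouse 3.
The 2 subunits, whose genes share the stretch printed above, were compared within each liver. The ratio of Hadha to Hadhb CPM was 2.28, 1.81, 2.05 and 1.89 in Smo-Luc mice 1 to 4 and 2.08, 1.86, 1.76 and 1.87 in Smo-Cre mice 1 to 4. The groups overlapped, and a difference between them was not detected (two-sided exact permutation p = 0.400, 0.400 adjusted over the 2 ratios). The difference of the log2 ratios was -0.08 ± 0.088 (SE). It was -0.02 without Smo-Luc mouse 1, -0.05 without Smo-Cre mouse 3 and -0.13 without either Smo-Luc mouse 2 or Smo-Cre mouse 1. Per kilobase of the longest protein-coding transcript, Hadha and Hadhb were close to each other in both groups, with a ratio of 1.02 in Smo-Luc and 0.962 in Smo-Cre livers (from the mean log2 ratios).

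Hadh, the soluble 3-hydroxyacyl-CoA dehydrogenase for shorter chains, had the smallest difference of the 10. It was 451, 453, 432 and 416 CPM in Smo-Luc mice 1 to 4 and 400, 489, 446 and 464 CPM in Smo-Cre mice 1 to 4. Smo-Cre mouse 1 was the lowest of the 8, the groups overlapped, and the log2 fold change was 0.04 ± 0.087 (SE, edgeR adjusted p 0.880). It was 0.10 without Smo-Cre mouse 1, 0.02 without Smo-Cre mouse 4 or Smo-Luc mouse 4 and 0.06 without Smo-Luc mouse 2. Without Smo-Cre mouse 2 it was -0.0033, the 1 change of sign among the 10 genes under any alternative.

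**Figure D2:**
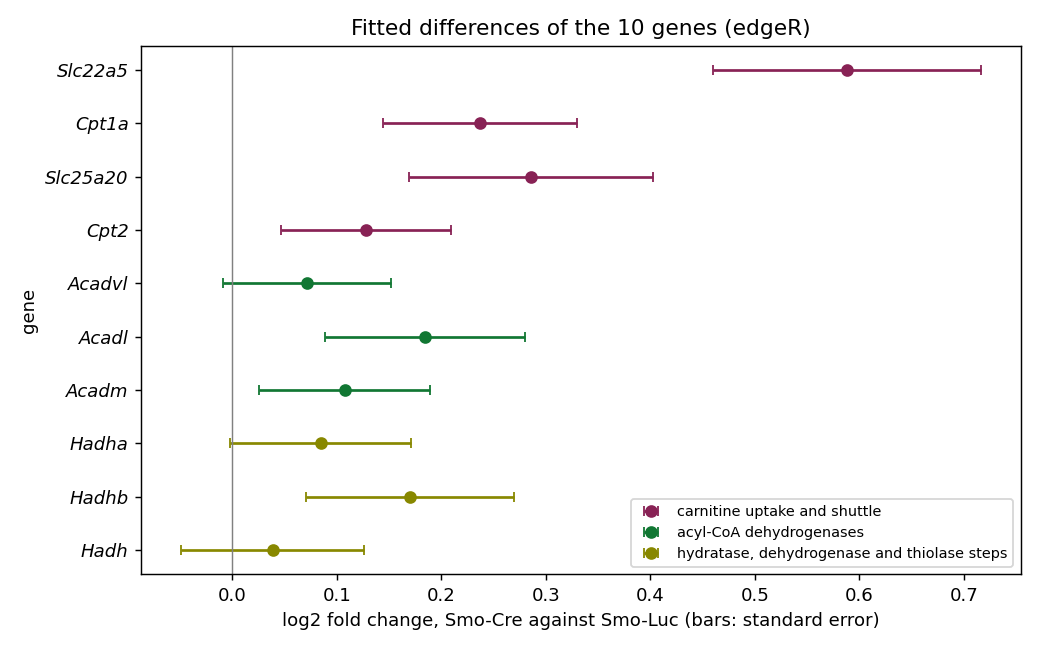
Fitted log2 fold change of Smo-Cre against Smo-Luc livers (horizontal axis) for the 10 genes, with bars of 1 standard error, coloured by role in the pathway. The fitted differences run from 0.04 for Hadh to 0.59 for Slc22a5; all 10 points lie right of 0, and the Hadh point crosses 0 without Smo-Cre mouse 2.

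The level of these genes was compared per length, as CPM per kilobase of the longest protein-coding transcript in GENCODE M21, which need not be the form expressed in these livers. In Smo-Luc livers Acadvl (262 ± 13.3), Hadh (245 ± 9.70), Acadm (190 ± 4.52) and Acadl (158 ± 7.43) led, in CPM per kilobase (SD, n = 4). Hadha (109 ± 7.45), Hadhb (107 ± 8.39), Cpt1a (94.7 ± 6.98), Cpt2 (72.0 ± 3.13) and Slc25a20 (64.2 ± 5.19) followed on the same scale. Slc22a5 was the lowest at 11.97 ± 1.58. Neighbours whose means lay within the sum of their SDs were Acadvl and Hadh, Hadha and Hadhb, Hadhb and Cpt1a, and Cpt2 and Slc25a20. In Smo-Cre livers the order was the same except that Hadhb (121 ± 13.5) stood before Hadha (116 ± 7.03), again within their SDs, and Slc22a5 was 18.0 ± 2.81 CPM per kilobase.

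The Smo-Cre livers were not alike. In each gene, the log2 difference of a liver from the control mean was taken. Its median over the 10 genes was 0.02, 0.19, 0.28 and 0.08 in Smo-Cre mice 1 to 4 and between -0.07 and 0.03 in the 4 Smo-Luc mice. Smo-Cre mouse 3 was the highest of all 8 livers in 7 of the genes and Smo-Cre mouse 2 in the other 3. Smo-Cre mouse 1 was the lowest of the 4 Smo-Cre livers in 8 of the genes and lay above the control mean in 8. Smo was 5.67, 3.93, 4.27 and 4.37 CPM and the reads on genes were 9543675, 9367795, 8203299 and 9445427 in Smo-Cre mice 1 to 4, and the part of either in these differences between livers was not tested. Counts with a mouse left out were read against the share of all genes in the same fit, which also moves. Without Smo-Cre mouse 3, Slc22a5 alone of the 10 stayed below an unadjusted p of 0.05 and higher (4.43% of all genes), and likewise without Smo-Luc mouse 2 (6.27%). Cpt1a was above it without Smo-Cre mouse 2, which left 2 of the 10 (6.48% of all genes), and Slc25a20 without Smo-Cre mouse 4 (2 of the 10, 4.71%), Smo-Luc mouse 3 (2 of the 10, 5.15%) or Smo-Luc mouse 4 (2 of the 10, 5.64%). Without Smo-Luc mouse 1 the 3 genes were below it (7.57%). Without Smo-Cre mouse 1, 4 of the 10 were below it, with Acadl added (8.96% of all genes), and 5 had no overlap between the groups, Slc22a5, Cpt2, Slc25a20, Acadm and Acadl (8.06% of all genes). Without Smo-Luc mouse 3, 4 had no overlap, Slc22a5, Cpt1a, Cpt2 and Acadm (4.27%). The number was 2 without Smo-Cre mouse 4 (with Cpt1a, 4.21% of all genes), Smo-Luc mouse 1 (with Acadvl, 5.89%) or Smo-Luc mouse 4 (with Acadl, 4.6%), and it was 1, Slc22a5, without Smo-Cre mouse 2 (5.12%), Smo-Cre mouse 3 (3.84%) or Smo-Luc mouse 2 (4.95%). With 3 livers in a group, a lack of overlap is easier to reach than with 4.

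**Figure D3:**
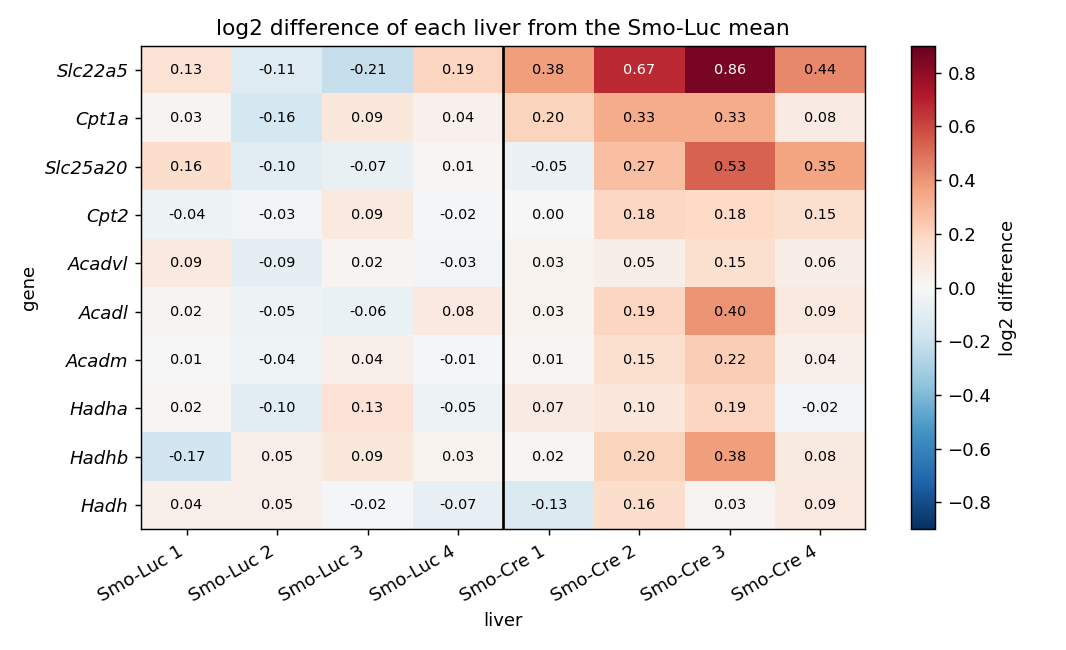
Log2 difference of each liver (columns) from the mean of the Smo-Luc livers for each of the 10 genes (rows), printed in each cell and coloured from blue (lower) to red (higher). The Smo-Cre columns 2 and 3 are above 0 in all 10 genes, with the highest value, 0.86, for Slc22a5 in Smo-Cre mouse 3; Smo-Cre mouse 1 lies between -0.13 and 0.07 except in Slc22a5 (0.38) and Cpt1a (0.20).

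The rest of mitochondrial beta-oxidation was read from a list of 19 other genes, all tested. Of these, 5 had an unadjusted p under 0.05 and were higher and 0 were lower, with a median log2 fold change of 0.15. By this rule 6.7% of all genes tested were higher and 7.15% lower. Of the list, 2 had all Smo-Cre livers above all controls, where 3.03% of all genes did so. After adjustment over all genes, edgeR called none of the 19. The 5 were Eci2, Acot2, Decr1, Eci1 and Etfb. Eci2, an enoyl-CoA isomerase found in peroxisomes as well as mitochondria, was 225, 187, 174 and 234 CPM in Smo-Luc mice 1 to 4 and 237, 307, 403 and 301 CPM in Smo-Cre mice 1 to 4. The groups did not overlap, with Smo-Cre mouse 1 just above the highest control (log2 fold change 0.61 ± 0.15, SE, adjusted p 0.146).
Decr1, the 2,4-dienoyl-CoA reductase, had a log2 fold change of 0.34 ± 0.12 (SE) and Eci1, another enoyl-CoA isomerase, of 0.33 ± 0.14 (SE), and in both Smo-Cre mouse 1 lay within the control range. Acot2, a mitochondrial acyl-CoA thioesterase with the close paralog Acot1, with which it could share reads, was 34.0 to 37.6 CPM in Smo-Luc livers and 42.6, 46.4, 112 and 40.6 CPM in Smo-Cre mice 1 to 4 (log2 fold change 0.77 ± 0.27, SE, adjusted p 0.249). Its groups did not overlap, but Smo-Cre mouse 3 was far above the others. The most abundant gene of the list, Acaa2, the thiolase for medium-chain substrates, was 931 ± 97.8 CPM in Smo-Luc and 1047 ± 101 CPM in Smo-Cre livers (SD, n = 4 each), with a fitted log2 difference of 0.17 (unadjusted p 0.127).
The genes given next were named for their place in the pathway after their values were seen. Etfb, the beta subunit of the electron transfer flavoprotein that takes electrons from the acyl-CoA dehydrogenases, had a log2 fold change of 0.26 ± 0.11 (SE, unadjusted p 0.0417). Its partner Etfa had 0.04 ± 0.078 (SE), and Etfdh, the enzyme that hands the electrons to ubiquinone, had -0.13 ± 0.11 (SE). The short-chain dehydrogenase Acads had -0.02 ± 0.086 (SE), and the short-chain hydratase Echs1 had -0.15 ± 0.095 (SE, unadjusted p 0.148).

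Before the shuttle, fatty acids are bound to CoA. Of 14 acyl-CoA synthetases listed, 11 were tested, and 2 were higher and 2 lower at an unadjusted p under 0.05. By this rule 6.7% of all genes tested were higher and 7.15% lower. Acsl1, the main long-chain acyl-CoA synthetase of liver, was 432, 346, 358 and 364 CPM in Smo-Luc mice 1 to 4 and 364, 527, 705 and 487 CPM in Smo-Cre mice 1 to 4. Smo-Cre mouse 1 was within the control range and the other 3 above it (log2 fold change 0.47 ± 0.16, SE, adjusted p 0.241). Slc27a2, a very long-chain acyl-CoA synthetase and the most abundant of the list, had a log2 fold change of 0.29 ± 0.13 (SE). Acsl3, known from lipid droplets, was 28.2 to 36.2 CPM in Smo-Luc livers and 24.3, 23.8, 14.5 and 23.0 CPM in Smo-Cre mice 1 to 4, without overlap (log2 fold change -0.61 ± 0.15, SE, adjusted p 0.146). Acsl5 was 302 to 346 CPM in Smo-Luc and 257 to 273 CPM in Smo-Cre livers, also without overlap, where 4.34% of all genes had all Smo-Cre livers below all controls (log2 fold change -0.30 ± 0.084, SE, adjusted p 0.175).

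Of 12 other carnitine genes, 11 were tested, 1 had an unadjusted p under 0.05 and the median log2 fold change was 0.01. Of all genes tested, 13.8% had such a p in either direction. The 1 gene was Cpt1c, a form of CPT1 known from brain. It was at only 1.62 ± 0.355 CPM in Smo-Luc and 2.62 ± 0.461 CPM in Smo-Cre livers (SD, n = 4 each). The most abundant, Crot, the carnitine octanoyltransferase of peroxisomes, was 880 ± 237 and 798 ± 89.0 CPM (log2 fold change -0.14, unadjusted p 0.417). Named after their values were seen, the enzymes of carnitine synthesis Tmlhe, Aldh9a1 and Bbox1 had log2 fold changes of 0.01, -0.07 and 0.09, each smaller than its standard error except that of Bbox1 (0.092).

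Of 18 regulators of the pathway, all tested, 1 had an unadjusted p under 0.05, where 13.8% of all genes tested did so in either direction. It was Sirt1, a deacetylase that acts on transcriptional regulators (log2 fold change 0.40 ± 0.13, SE, adjusted p 0.241). Ppara itself was 213, 162, 150 and 194 CPM in Smo-Luc mice 1 to 4 and 197, 253, 181 and 210 CPM in Smo-Cre mice 1 to 4. The groups overlapped (log2 fold change 0.23 ± 0.13, SE, unadjusted p 0.105). Ppargc1a, which encodes the coactivator PGC1a, was 7.50 ± 0.499 and 6.98 ± 1.16 CPM (SD, n = 4 each), with a fitted log2 difference of -0.10 ± 0.16 (SE). Acacb, the acetyl-CoA carboxylase that makes malonyl-CoA at the outer membrane, had a log2 fold change of 0.09 ± 0.15 (SE). Mlycd, which degrades malonyl-CoA, had 0.12 ± 0.11 (SE). Hnf4a, the most abundant of the list, had -0.13 ± 0.093 (SE).

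Peroxisomes shorten very long chains by a parallel set of enzymes. Of 18 peroxisomal genes, all tested, 8 were higher and 0 lower at an unadjusted p under 0.05, with a median log2 fold change of 0.18. By this rule 6.7% of all genes tested were higher and 7.15% lower. In 4 of the 18 all Smo-Cre livers lay above all controls, where 3.03% of all genes did so. After adjustment over all genes, edgeR called none of the 18. The transporter Abcd2 had a log2 fold change of 0.44 ± 0.12 (SE), and the thiolases Acaa1b and Acaa1a, close paralogs that could share reads, had 0.55 and 0.34 (standard errors 0.11 and 0.097). The most abundant, Scp2, had 0.03 ± 0.088 (SE). The difference between the mitochondrial list, which holds Eci2, and the peroxisomal list was not tested.

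**Figure D4:**
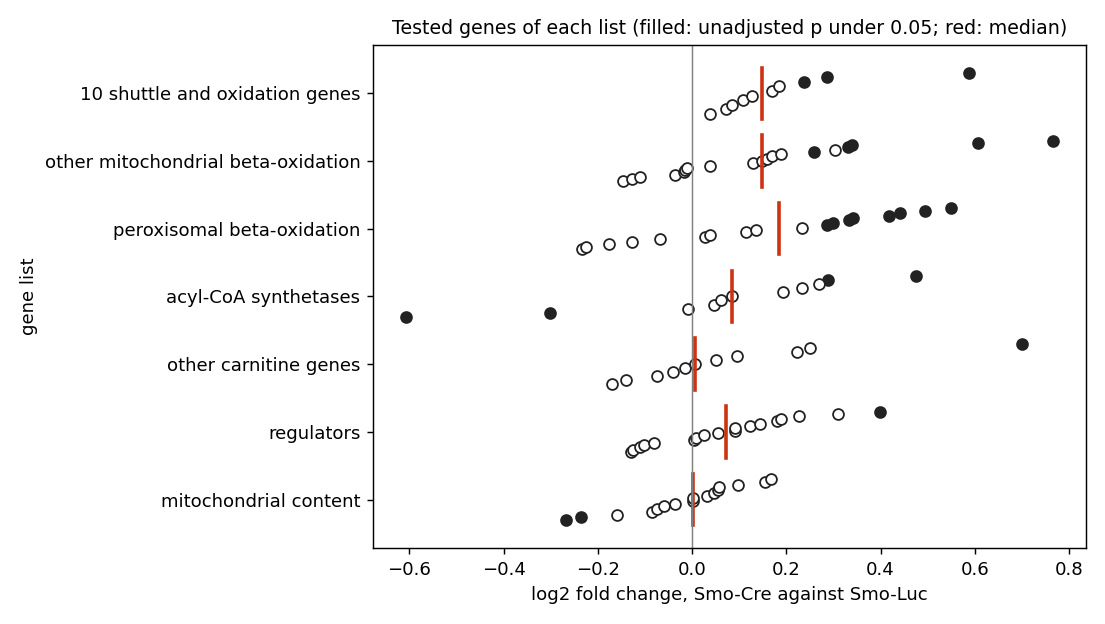
Log2 fold change of Smo-Cre against Smo-Luc livers (horizontal axis) of each tested gene in 7 lists (rows), with filled points for an unadjusted p under 0.05 and a red line at the median of the list. The medians run from 0.00 for mitochondrial content to 0.18 for peroxisomal beta-oxidation; the 10 genes described here have a median of 0.15.

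Other genes of mitochondria and of the cells of the liver were read from lists in the same fit. The counts of each list stand against 6.7% of all genes tested that were higher and 7.15% that were lower at an unadjusted p under 0.05. A list of 16 mitochondrial genes outside fatty acid oxidation had a median log2 fold change of 0.00. At an unadjusted p under 0.05, 2 of them were lower, Cs, the citrate synthase (log2 fold change -0.24 ± 0.10, SE), and Pdha1 (-0.27 ± 0.12, SE), and 0 were higher. The summed level of the list was 4226 ± 206 CPM in Smo-Luc and 4201 ± 133 CPM in Smo-Cre livers (SD, n = 4 each), and its most abundant gene was Atp5a1 (log2 fold change -0.07).
The 12 hepatocyte markers were all present, led by Alb at 16570 ± 973 and 15338 ± 897 CPM. Their sum was 40840, 35067, 35321 and 37780 CPM in Smo-Luc mice 1 to 4 and 37114, 38248, 36355 and 34782 CPM in Smo-Cre mice 1 to 4, so the groups overlapped. Of these markers 1 had an unadjusted p under 0.05, Cps1, which was lower (log2 fold change -0.33 ± 0.10, SE).
Of 12 lymphocyte markers tested, 8 were lower and 0 higher in Smo-Cre livers at an unadjusted p under 0.05, among them Cd8a (log2 fold change -0.77), Nkg7 (-0.94), Cd3e (-0.98) and Cd8b1 (-0.87). Their sum was 114, 140, 127 and 130 CPM in Smo-Luc mice 1 to 4 and 93.1, 87.3, 121 and 110 CPM in Smo-Cre mice 1 to 4, with Smo-Cre mouse 3 above Smo-Luc mouse 1. Their most abundant gene, Ptprc, which all leukocytes express, had a log2 fold change of -0.01, Klrb1c had at most 3 reads in any liver, and Trbc2 was not among the symbols counted.
Of 12 macrophage markers, 2 were higher and 0 lower at an unadjusted p under 0.05, Trem2 (log2 fold change 0.75) and Lyz2 (0.31). Their sum was 1902, 1829, 2350 and 2125 CPM in Smo-Luc mice 1 to 4 and 2484, 1940, 2102 and 2099 CPM in Smo-Cre mice 1 to 4, with Cd5l the most abundant. At an unadjusted p under 0.05, 1 of 12 stellate cell markers (Col1a1, log2 fold change -0.36), 1 of 10 endothelial markers (Pecam1, -0.50) and 0 of 6 tested cholangiocyte markers differed, the former 2 being lower. The most abundant genes of these lists were Col3a1 (log2 fold change -0.23), Eng (-0.09) and Spp1 (0.29), and the sums overlapped between the groups in all 3. None of these markers had an edgeR adjusted p under 0.05. The part of these cells in the results of the 10 genes was not tested.
Adipocytes and muscle also oxidize fatty acids or store fat. Lep had 0 reads in all livers and Adipoq, Plin1, Retn and Cfd at most 3 in any liver. The other 3 of the adipocyte list, Pnpla2 (the most abundant), Lipe and Cidec, which hepatocytes also express, had log2 fold changes of 0.44, 0.44 and 0.57. Of these 3, 2 were higher at an unadjusted p under 0.05, Pnpla2 and Lipe, each without overlap (3.03% of all genes had all Smo-Cre livers above all controls). Cidec, named here to complete the list, had an edgeR unadjusted p of 0.0502. The sum of the list was 216 ± 27.6 CPM in Smo-Luc and 298 ± 34.5 CPM in Smo-Cre livers (SD, n = 4 each), without overlap. Of 10 muscle markers, Myh1, Myh2, Myh4 and Myh7 had 0 reads in all livers and Ckm, Tnnt3 and Actn3 at most 3 in any, the sum was between 1.75 and 4.97 CPM in all livers, and the most abundant, Mylpf, had a log2 fold change of 0.22 ± 0.35 (SE). Acta1, the skeletal muscle actin, had too few reads to be tested, with 4, 3, 26 and 17 reads in Smo-Luc mice 1 to 4 and 2, 0, 1 and 2 in Smo-Cre mice 1 to 4. The groups did not overlap, but the nearest values, 3 and 2 reads, are at or below the floor of counting. Of the genes tested, which leave out Acta1, 4.34% had all Smo-Cre livers below all controls.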

How the data were processed

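Reads of 8 livers, 4 per group, were counted by the authors, who deposited 1 list of raw counts per gene symbol for each liver, not normalized. The submitters' processing notes name fastp, STAR 2.7.5, featureCounts 2.0.1 and GRCm38. The closing entries of the lists have the names that htseq-count writes, and the annotation and strand setting are not given in the sources used here. Without strand, reads of overlapping antisense genes cannot be told apart. Entries that name no gene held 7.56% to 9.68% (no feature) and 2.45% to 2.61% (ambiguous) of all counted reads and were left out.

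The test across genes was edgeR's quasi-likelihood test (edgeR 4.0.16 under R 4.3.3, with filterByExpr, TMM, estimateDisp, glmQLFit and glmQLFTest, group as the only term) over 12977 genes, with Benjamini-Hochberg adjustment over all of them. Standard errors are those implied by the F statistic. DESeq2 1.42.0 was an alternative, and its adjusted p is missing for some genes. Single values were compared by exact permutation over 70 assignments, and over fewer with a mouse left out. Counting error does not cover PCR duplicates, since no molecular identifiers are given. The labels number the samples within a group without naming animals, and each was taken as 1 mouse. The steps were tested on simulated data.

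The 10 members and all lists were chosen with earlier results of these data known. Named are the members, Smo, Ppara, Ppargc1a, Acacb and Mlycd, and of each list the most abundant gene and up to 4 genes with the smallest unadjusted p among those under 0.05, except where stated and except, for the marker lists, genes given for their reads at or near 0. A gene that this rule names is not reported here. Alternatives were RLE and upper-quartile factors, DESeq2, 2 other filters, the replicate block and each mouse left out. Livers of a group were not copies of each other (chi-square between 7.76 and 17.5 per degree of freedom). Figures used matplotlib 3.10.9.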

Additional observations from a re-analysis of the deposited data

Results flagged for a closer look

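Within a group of 4 livers, a value was singled out where its gap to the nearest other, as a share of the range, was above Dixon's critical value, which chance alone gives in about 1 in 20 groups. Among 132 groups examined, 5 were singled out and chance gives 6.6. No value of the 10 genes was among them. In Smo-Cre mouse 3, Acsl3 was 14.5 CPM, against 23.0 to 24.3 CPM in the other Smo-Cre livers, Acot2 was 112 CPM, against 40.6 to 46.4 CPM, and the reads on genes were 8203299, against 9367795 to 9543675. Acacb was 14.1 CPM in Smo-Cre mouse 1, against 10.3 to 10.8 CPM. Cd8a was 11.001 CPM in Smo-Luc mouse 1, against 9.44 to 9.54 CPM. The cause of these values was not tested.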

How the results depend on the processing

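Of 10 genes, 9 kept the sign of their log2 fold change under all 14 alternatives, and that of Hadh was -0.0033 without Smo-Cre mouse 2. With RLE or upper-quartile factors, DESeq2, either other filter or the replicate block, the count of the 10 genes at an unadjusted p under 0.05 was 3, and 1 gene had no overlap. The shares of all genes in those fits ran from 5.68% (no filter) to 7.85% (replicate block) for the first count and from 2.58% (no filter) to 3.21% (DESeq2 and RLE factors) for the second. Leaving out one mouse at a time, the first count ran from 1 to 4 (both counts were highest without Smo-Cre mouse 1, where 8.96% and 8.06% of all genes were so called), the second from 1 to 5 and the median log2 fold change from 0.10 to 0.20. Slc22a5 passed an adjusted p of 0.05 with DESeq2 (0.00902) and with no filter (0.0442). The number of all genes past it was 0 in the reported fit, 163 with DESeq2, 61 with no filter, 8 with the replicate block and 0 to 78 with one mouse left out (78 without Smo-Cre mouse 1). The cause of these changes was not tested. The log2 fold change of Smo passed with DESeq2 (-0.87, adjusted p 0.00613) and with no filter (-0.88, adjusted p 0.0385), and ran from -0.997 to -0.811 with one mouse left out, passing without Smo-Cre mouse 1. The difference of the log2 ratio of Cpt1a to Cpt2 ran from 0.066 to 0.169, and that of Hadha to Hadhb from -0.13 to -0.02, with one mouse left out. The labels give same-numbered livers of the groups no link beyond the number, and whether they shared a batch was not tested. Their deviations from the group means had correlations over genes of 0.0611 to 0.187, not all over 0.1. Those of livers with different numbers ran from -0.205 to 0.157, and 5 of 8 livers correlated best with their own number. No scaling moved the median of all genes by over 0.1.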
